A study of Mus musculus with 10 samples.

Results

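The genes of cholesterol synthesis, uptake and efflux were followed in mouse bone marrow-derived macrophages (BMDMs) 4 h after stimulation through TLR7, an endosomal receptor that binds guanosine at one site and uridine-rich single-stranded RNA (ssRNA) at another. The set held 33 genes chosen by name, as known sterol and fatty acid genes under the control of the SREBP and LXR transcription factors, out of 55573 genes measured, and all 33 passed the low-value filter that 11978 genes passed. They were split by role into 7 genes that lead by way of mevalonate to squalene and 8 from squalene to cholesterol. The others were 4 of the SREBP and INSIG proteins, 7 of LXR and its targets, 3 of sterol transport, esterification and oxysterol synthesis, and 4 of fatty acid synthesis. The BMDMs came from female wild-type C57BL/6 mice and were grown with M-CSF, and RNA was taken from 10 cultures, 2 labelled as biological replicates in each of 5 groups. The groups received vehicle alone, polyU ssRNA (5 µg, complexed with the lipid carrier DOTAP), the PNP inhibitor ulodesine (1 µM) with deoxyguanosine and guanosine (5 µM each; PNPi+dG/rG), that mixture together with polyU (PNPi+dG/rG+polyU), or the synthetic TLR7 agonist R848 (1 ng/mL). Purine nucleoside phosphorylase (PNP) breaks down guanosines, so its inhibitor keeps the added guanosines in the culture. No group received DOTAP by itself, so effects of polyU and of its carrier cannot be told apart. The inhibitor and the guanosines were never given without each other, so their effects cannot be told apart either. Levels are read counts per gene scaled to the library total (CPM), and the libraries held about 14128123 to 38392592 such reads.

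Cells build cholesterol from acetyl-CoA by way of mevalonate, squalene and lanosterol. When the membrane of the endoplasmic reticulum is low in sterol, SCAP escorts SREBP proteins to the Golgi, where they are cut to release transcription factors that switch on the synthesis genes; INSIG proteins hold SCAP and SREBP back when sterol is plentiful. LXRα and LXRβ are nuclear receptors that bind oxysterols and switch on cholesterol efflux, and LXR also drives SREBP-1c and with it fatty acid synthesis. In macrophages these pathways are tied to innate immunity, since the oxysterol 25-hydroxycholesterol is made by an interferon-inducible enzyme and blocks SREBP processing.

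All 8 macrophage markers examined were at 1 CPM or more in every library, with a summed level of 15196 to 18027 CPM, and the stimulated groups could be recognised by Tnf, a cytokine gene that TLR7 induces: its level was 53.2 and 56.4 CPM with vehicle, 245 and 259 CPM with polyU, 75.7 and 90.0 CPM with PNPi+dG/rG, 3415 and 3154 CPM with PNPi+dG/rG+polyU and 2167 and 2064 CPM under R848. The R848 libraries stood apart in fibroblast transcripts. The summed level of 6 fibroblast markers was 139 to 149 CPM there, with all 6 genes at 1 CPM or more in both libraries, against 0.505 to 5.14 CPM in the other groups. The collagen gene Col1a1, for example, was at 51.6 and 58.3 CPM with R848 and at no more than 0.393 CPM elsewhere, and the receptor gene Pdgfrb was at 36.8 and 39.1 CPM with R848 and at 3.19 and 4.29 CPM with PNPi+dG/rG+polyU. The summed level of 7 granulocyte markers was 23.0 to 25.2 CPM with R848, against 3.88 to 9.71 CPM in the other groups. This sum rested on few of them, since 2 of the 7 were at 1 CPM or more in both R848 libraries. Mpo, Elane and Ngp were at 0 in both R848 libraries, and Ly6g was at 0 in every library. Adipocyte markers, which would matter for lipid genes, were at 0 apart from 0.0561 CPM of Adipoq in 1 vehicle library. The part of the fibroblast and granulocyte transcripts in the R848 results was not tested. Leaving both R848 libraries out of the fit does not bear on it, since the comparisons that do not need them keep their fold changes. In those comparisons 164 member values kept their side of the threshold and 1 gained a call.

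Against vehicle, polyU raised most of the cholesterol synthesis genes, PNPi+dG/rG gave no call among the 33 genes, and PNPi+dG/rG+polyU and R848, the stronger stimuli by the number of genes called, raised some sterol genes and lowered the fatty acid genes. Calls are at an adjusted p under 0.05 in limma, fitted on log2 CPM over all 11978 genes. With polyU 17 of the 33 genes were higher and 5 lower, where 20.6% of all genes tested were higher and 18.7% lower. With PNPi+dG/rG no member was called in limma and 4 had an unadjusted p under 0.05, while a fit of only those 2 groups called Fasn lower (-0.24, adjusted p = 0.047), against 0.409% of all genes called higher and 0.392% called lower. PNPi+dG/rG+polyU gave 10 higher and 12 lower members, against 22.2% and 46.7% of all genes. R848 gave 14 higher and 16 lower members, against 19.2% and 62.9% of all genes. The median log2 fold change of the members was 0.37 under polyU, 0.0010 under PNPi+dG/rG+polyU and -0.25 under R848, beside medians over all genes tested of 0.016, -0.22 and -0.50. Since the median gene shifted down in those last treatments, changes are also given where centring gains, loses or turns a call. For these, the median log2 level of each library was subtracted, and they are called relative to the median gene. That level is not the median fold change above, so the 2 shifts differ: centring took Hmgcs1 with R848 from 1.21 to 1.80. With each library centred on its median gene, PNPi+dG/rG+polyU gave 16 higher and 7 lower members, and R848 gave 19 higher and 8 lower. Shares of all genes were counted on deposited CPM only, so the centred counts here and below have no such share beside them. The comparisons share the vehicle libraries. In these bulk samples fewer cells of a kind and less RNA per cell cannot be told apart.

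**Figure D1:**
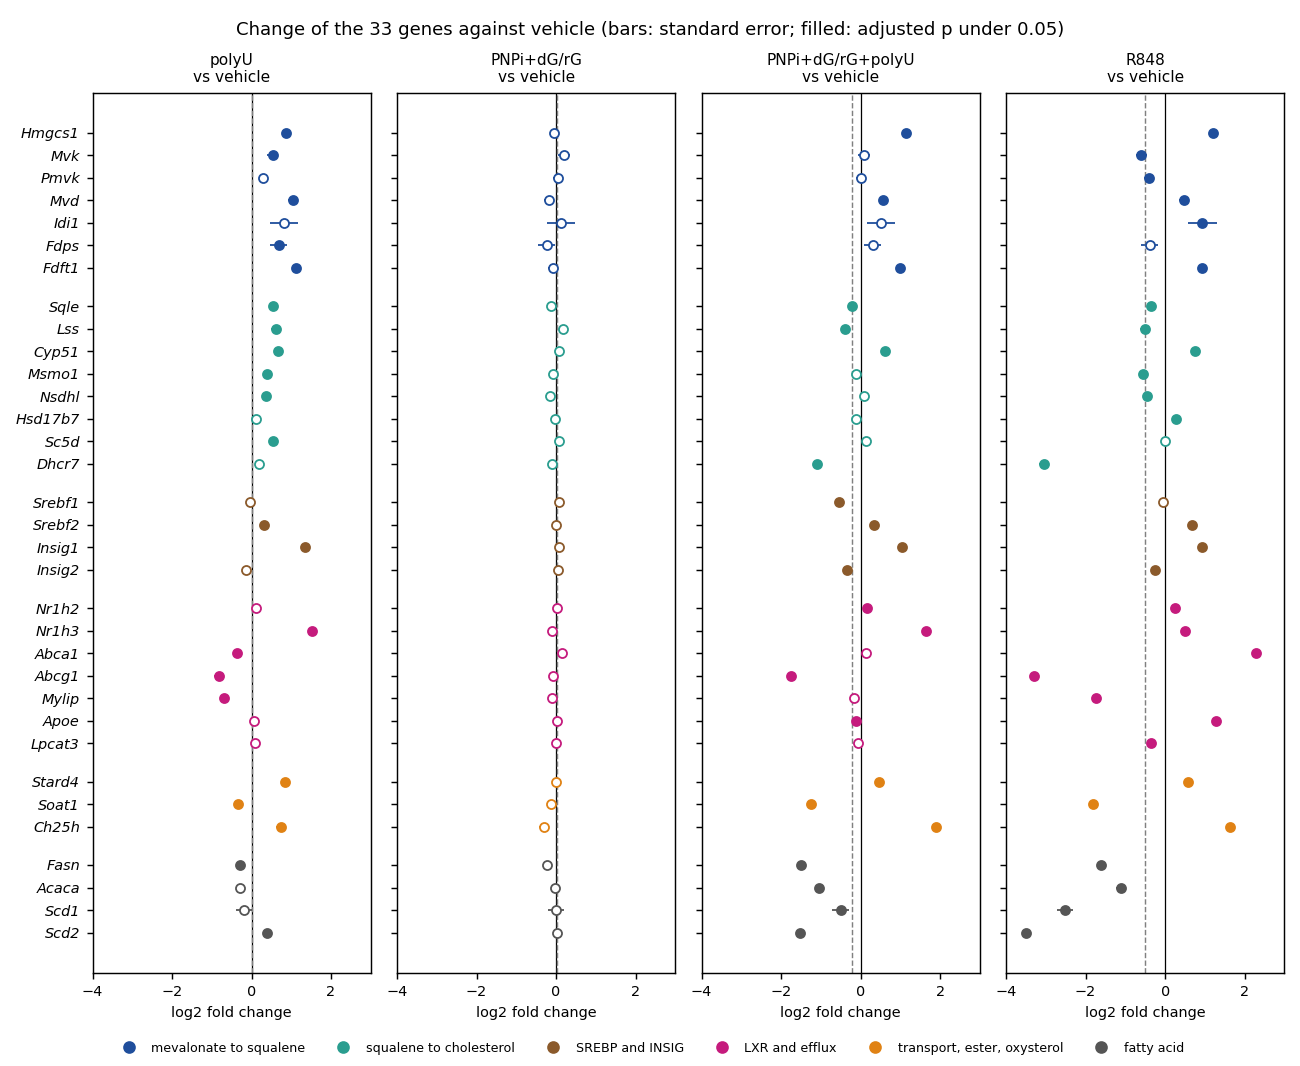
Log2 fold change against vehicle (x axis) of the 33 genes (y axis, coloured by role) in the 4 treated groups, with limma standard errors as bars, filled points for an adjusted p under 0.05 and a dashed line at the median of all genes tested. With polyU, 11 of the 15 synthesis genes (blue and green) are filled and right of 0, with PNPi+dG/rG no point is filled, and with R848 the points reach from -3.50 for Scd2 to 2.29 for Abca1.

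The early steps, by way of mevalonate to squalene, held the synthesis gene with the largest rise under both stronger stimuli. Hmgcs1 (ENSMUSG00000093930, chr13:119690379-119708260, plus strand) encodes HMG-CoA synthase, which makes the precursor of mevalonate. Its level was 36.7 and 32.6 CPM with vehicle, 62.5 and 64.6 CPM with polyU, 31.1 and 35.8 CPM with PNPi+dG/rG, 79.9 and 73.7 CPM with PNPi+dG/rG+polyU and 85.0 and 75.4 CPM under R848. The 3 stimulated groups lay above all libraries of the vehicle and PNPi+dG/rG groups with no overlap. Its log2 fold change against vehicle was 0.88 ± 0.083 (SE), adjusted p = 8.1e-07 with polyU, 1.15 ± 0.083 (SE), adjusted p = 6.8e-09 with PNPi+dG/rG+polyU, and 1.21 ± 0.083 (SE), adjusted p = 2.0e-09 under R848.

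Mvd, which decarboxylates mevalonate diphosphate, and Fdft1, the squalene synthase that commits the pathway to sterols, also rose in all 3 stimulated groups. Mvd went from 11.2 ± 1.76 CPM (SD, n = 2, as in all such values) with vehicle to 23.1 ± 2.36 CPM with polyU, 16.6 ± 0.770 CPM with PNPi+dG/rG+polyU and 15.5 ± 0.912 CPM under R848. Fdft1 went from 8.84 ± 0.905 CPM to 19.2 ± 0.711, 17.6 ± 0.775 and 16.8 ± 0.646 CPM in the same order, log2 fold changes of 1.12 ± 0.11, 0.99 ± 0.11 and 0.93 ± 0.11 (SE). Fdft1 overlaps the cathepsin gene Ctsb on the other strand, and 9.38% of its 50-base stretches also occur in transcripts of other genes, so part of its reads may be counted elsewhere.

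The other 4 genes of these steps moved less evenly. Mvk, mevalonate kinase, rose with polyU (log2 fold change 0.53 ± 0.14 (SE), adjusted p = 0.0083) and fell with R848 (-0.60 ± 0.14 (SE), adjusted p = 0.0012), and its rise lost the call without vehicle replicate 1 (0.33, adjusted p = 0.12) or polyU replicate 2 (0.39, adjusted p = 0.11); its R848 value was -0.0078 (adjusted p = 0.96) relative to the median gene. Pmvk, phosphomevalonate kinase, was at 13.3 ± 1.68 CPM with vehicle, 16.3 ± 1.64 CPM with polyU and 13.3 ± 0.357 CPM with PNPi+dG/rG+polyU, neither of them called, and at 10.0 ± 0.807 CPM with R848, a fall (adjusted p = 0.0051) that became a value of 0.19 relative to the median gene and was not called without vehicle replicate 2 (-0.28, adjusted p = 0.075) or R848 replicate 1 (-0.32, adjusted p = 0.050). Fdps, farnesyl diphosphate synthase, rose with polyU (log2 fold change 0.68 ± 0.21 (SE), adjusted p = 0.020), a call lost without vehicle replicate 2 (0.51, adjusted p = 0.15) or polyU replicate 2 (0.42, adjusted p = 0.24), and 26.2% of its 50-base stretches occur in other transcripts. With PNPi+dG/rG+polyU Fdps was at 0.31 ± 0.21, not called, and at 0.52 (adjusted p = 0.045) relative to the median gene. Idi1, isopentenyl diphosphate isomerase, was the lowest member at 0.814 ± 0.279 CPM with vehicle, from as few as 11 reads. Of its 50-base stretches, 17.7% occur in other transcripts. Its rise with R848 (log2 fold change 0.94 ± 0.36 (SE), adjusted p = 0.024) lost the call without vehicle replicate 1 (0.58) or R848 replicate 1 (0.87).

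Upstream sequences are shown for 4 of the genes that rose in all 3 stimulated groups (Hmgcs1, Mvd, Cyp51 and Insig1) and for Lss, a synthesis gene that rose with polyU and, on deposited CPM, fell with PNPi+dG/rG+polyU and R848, since SREBP works at such promoters beside NF-Y, the factor that binds CCAAT boxes. Each is the 220 bases before the gene's RefSeq start on its own strand (GRCm38.p6), 5′ to 3′, at chr13:119690131-119690350 (plus strand), chr8:122443423-122443642 (minus), chr5:4104698-4104917 (minus), chr5:28071192-28071411 (plus) and chr10:76531385-76531604 (plus). Capitals mark matches on either strand to CCAAT or to TCACNCCAC, the core of the classical sterol regulatory element.
Hmgcs1: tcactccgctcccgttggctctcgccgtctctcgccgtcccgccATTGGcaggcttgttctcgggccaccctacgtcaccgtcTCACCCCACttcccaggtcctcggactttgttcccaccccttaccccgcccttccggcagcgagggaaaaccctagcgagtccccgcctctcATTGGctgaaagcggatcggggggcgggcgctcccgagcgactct
Mvd: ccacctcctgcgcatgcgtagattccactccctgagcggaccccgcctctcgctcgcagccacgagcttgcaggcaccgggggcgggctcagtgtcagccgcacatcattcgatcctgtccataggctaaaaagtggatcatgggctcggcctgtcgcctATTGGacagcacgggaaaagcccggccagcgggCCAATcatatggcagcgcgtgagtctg
Cyp51: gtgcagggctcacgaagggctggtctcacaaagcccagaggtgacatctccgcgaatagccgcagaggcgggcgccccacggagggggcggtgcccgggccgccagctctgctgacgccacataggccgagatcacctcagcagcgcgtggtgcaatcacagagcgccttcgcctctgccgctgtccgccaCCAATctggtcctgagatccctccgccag
Insig1: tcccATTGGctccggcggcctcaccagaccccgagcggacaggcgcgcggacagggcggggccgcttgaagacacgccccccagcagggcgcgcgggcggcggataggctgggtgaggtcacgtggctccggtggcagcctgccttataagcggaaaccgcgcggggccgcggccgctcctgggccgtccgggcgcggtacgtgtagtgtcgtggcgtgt
Lss: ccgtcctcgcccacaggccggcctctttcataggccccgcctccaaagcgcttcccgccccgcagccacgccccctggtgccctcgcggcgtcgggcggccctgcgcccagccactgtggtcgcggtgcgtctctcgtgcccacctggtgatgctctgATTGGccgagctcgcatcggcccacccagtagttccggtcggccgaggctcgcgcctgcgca

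The Hmgcs1 stretch held the sterol element core, 137 bases before the start, between CCAAT matches at 176 and 45 bases. Mvd held CCAAT matches 60 and 27 bases before its start, Cyp51 1 at 29, Insig1 1 at 216 and Lss 1 at 62. Over the full RefSeq windows of 300 bases, from 250 before to 50 after a start, 26 of the 33 members had an entry, and the match to CCAAT was found for all 12 of the synthesis genes with one and for 8 of the other 14, beside 41.1% of 27025 genes. TCACNCCAC was found for Hmgcs1 alone among the 26, beside 1.4% of all genes. Fdps, Fdft1, Sqle, Abcg1, Stard4, Scd1 and Scd2 had no entry. Lss carried a CCAAT match as the rising genes did, and a match is a description of letters, not a site in use.

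**Figure D2:**
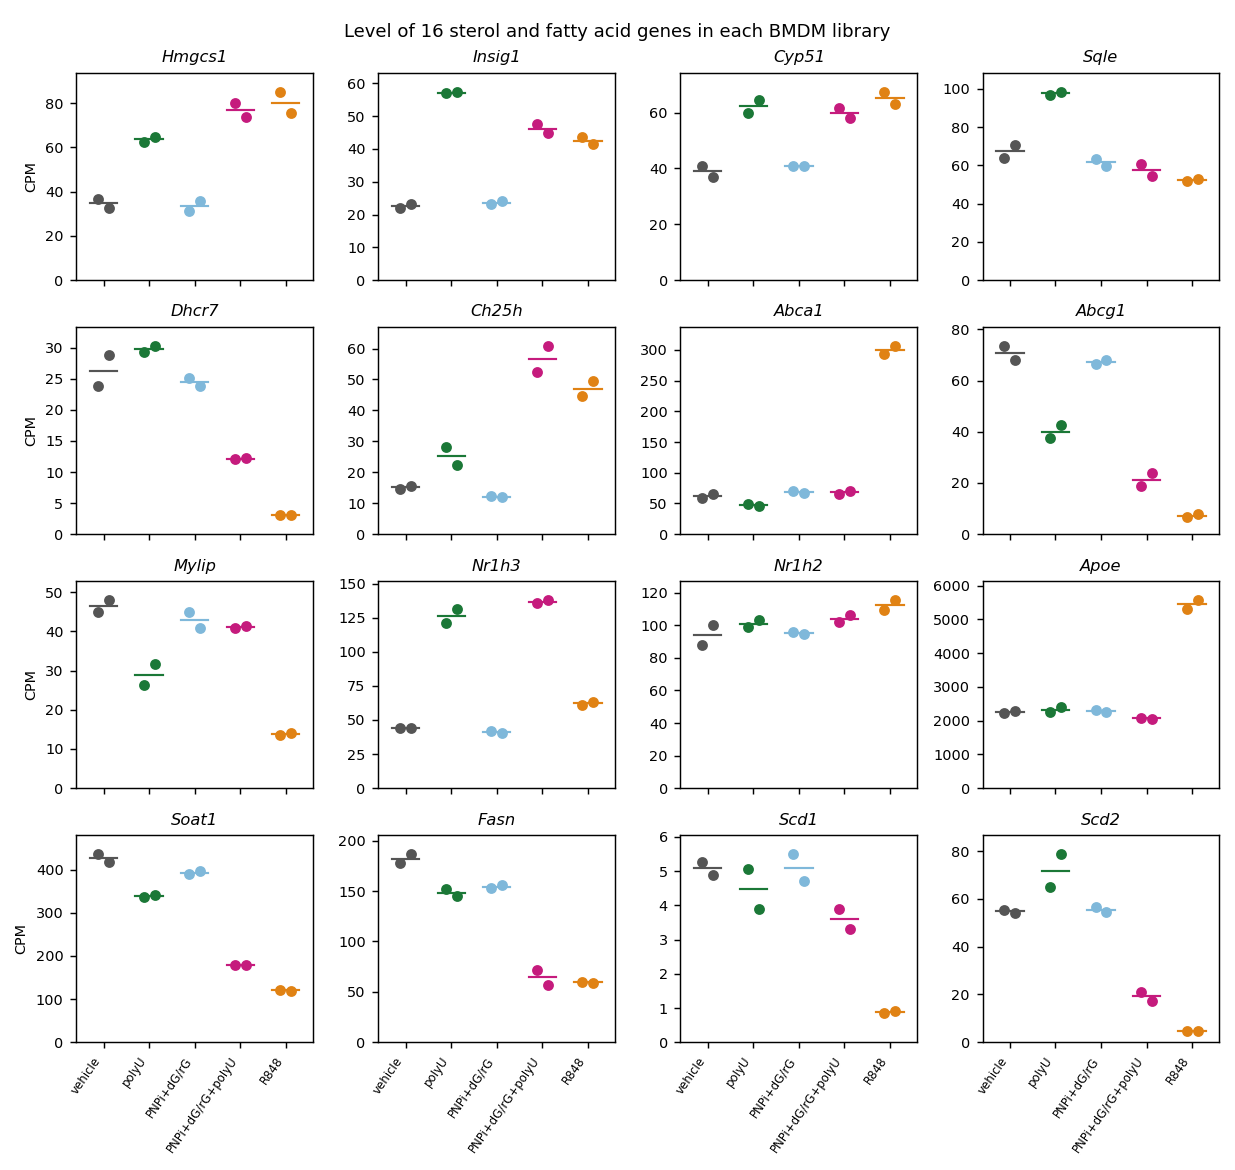
CPM (y axis, linear from 0) of 16 of the genes in each library (points) of the 5 groups (x axis), with the mean of the 2 libraries as a line. Hmgcs1 and Insig1 are high in all 3 stimulated groups, Abca1 and Apoe stand out with R848, where Abca1 reaches 294 and 306 CPM, and Dhcr7, Abcg1, Scd1 and Scd2 are lowest with R848.

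Along the steps from squalene to cholesterol, most genes rose with polyU, and the counts under the stronger stimuli depended on the scaling. With polyU 6 of 8 were higher and none lower, with PNPi+dG/rG+polyU 1 was higher and 3 lower, and with R848 2 were higher and 5 lower, near the share of all genes lower. Relative to the median gene the counts were 3 higher and 1 lower with PNPi+dG/rG+polyU, and 4 higher and 1 lower under R848. Cyp51, the lanosterol demethylase, rose in all 3: it was at 39.0 ± 2.90 CPM with vehicle, 62.2 ± 3.10 CPM with polyU, 59.8 ± 2.45 CPM with PNPi+dG/rG+polyU and 65.3 ± 2.95 CPM under R848, log2 fold changes of 0.68 ± 0.069, 0.62 ± 0.069 and 0.75 ± 0.069 (SE). Sqle, the squalene epoxidase that is a rate-limiting step, rose with polyU to 97.6 ± 1.06 CPM from 67.3 ± 4.94 CPM, and was at 57.4 ± 4.64 CPM with PNPi+dG/rG+polyU and 52.3 ± 1.02 CPM under R848. Its fall with R848 (log2 fold change -0.36 ± 0.069 (SE), adjusted p = 1.6e-04) turned to a rise of 0.23 (adjusted p = 0.0055) relative to the median gene, and its fall with PNPi+dG/rG+polyU (-0.23 ± 0.069 (SE), adjusted p = 0.0079) was -0.017 (adjusted p = 0.84) relative to the median gene and lost the call without vehicle replicate 2 (-0.15, adjusted p = 0.10) or PNPi+dG/rG+polyU replicate 2 (-0.15, adjusted p = 0.11).

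Dhcr7 (ENSMUSG00000058454, chr7:143823145-143848410, plus strand) encodes the reductase of the last step, from 7-dehydrocholesterol to cholesterol, and fell furthest of the synthesis genes. It was at 23.8 and 28.8 CPM with vehicle, 29.3 and 30.3 CPM with polyU, 25.1 and 23.9 CPM with PNPi+dG/rG, 12.1 and 12.2 CPM with PNPi+dG/rG+polyU and 3.13 and 3.15 CPM under R848. The PNPi+dG/rG+polyU libraries lay below every library of the vehicle, polyU and PNPi+dG/rG groups, and the R848 libraries lay below those in turn. The log2 fold change against vehicle was -1.10 ± 0.11 (SE), adjusted p = 1.5e-07 with PNPi+dG/rG+polyU and -3.06 ± 0.11 (SE), adjusted p = 2.3e-13 under R848 (8.32-fold lower), and it remained -0.89 and -2.46 relative to the median gene.

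The remaining sterol steps gave smaller values. Lss, lanosterol synthase, was at 23.8 ± 0.458 CPM with vehicle, 36.3 ± 0.684 CPM with polyU, 18.4 ± 3.67 CPM with PNPi+dG/rG+polyU and 16.7 ± 1.74 CPM under R848, and its fall with PNPi+dG/rG+polyU (log2 fold change -0.39 ± 0.12 (SE), adjusted p = 0.0088) was -0.17 (adjusted p = 0.19) relative to the median gene and lost the call without replicate 2 of that group (-0.18, adjusted p = 0.16). Msmo1, the sterol C4 methyl oxidase, and Nsdhl, which acts after it in C4 demethylation, rose with polyU (0.40 ± 0.071 and 0.37 ± 0.094) and fell with R848 (-0.56 ± 0.071 and -0.45 ± 0.094), but relative to the median gene Lss, Msmo1 and Nsdhl were at 0.076, 0.034 and 0.14 with R848, none of them called. Sc5d, the sterol C5 desaturase, was higher with polyU (0.55 ± 0.082) and at 0.00041 with R848, or 0.59 (adjusted p = 1.1e-05) relative to the median gene. With PNPi+dG/rG+polyU, Sc5d (0.14 ± 0.082) and Nsdhl (0.096 ± 0.094) were not called on deposited CPM and were at 0.35 (adjusted p = 0.0020) and 0.31 (adjusted p = 0.0087) relative to the median gene. Hsd17b7, the keto-reductase of C4 demethylation, was called with R848 only (0.27 ± 0.089 (SE), adjusted p = 0.011), and not without vehicle replicate 1 (0.20, adjusted p = 0.097) or R848 replicate 2 (0.23, adjusted p = 0.077).

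Of the regulators, Insig1 and Srebf2 rose with all 3 stimuli under both scalings, while their paralogs gave values that depended on the scaling under R848. Insig1 (ENSMUSG00000045294, chr5:28071363-28078662, plus strand), itself an SREBP target, was at 21.9 and 23.1 CPM with vehicle, 56.9 and 57.4 CPM with polyU, 23.2 and 24.0 CPM with PNPi+dG/rG, 47.6 and 44.7 CPM with PNPi+dG/rG+polyU and 43.6 and 41.5 CPM under R848. The 3 stimulated groups did not overlap with vehicle, with log2 fold changes of 1.34 ± 0.069 (SE), adjusted p = 7.5e-10 with polyU, 1.03 ± 0.069 (SE), adjusted p = 1.7e-09 with PNPi+dG/rG+polyU and 0.92 ± 0.069 (SE), adjusted p = 4.4e-09 under R848. Insig2, whose product also retains SCAP but which is not driven by SREBP in the same way, was at 28.4 and 26.8 CPM with vehicle, 25.5 and 24.4 CPM with polyU, 28.4 and 28.5 CPM with PNPi+dG/rG, 20.7 and 23.3 CPM with PNPi+dG/rG+polyU and 23.4 and 23.0 CPM under R848. Its fall with PNPi+dG/rG+polyU was -0.33 ± 0.082 (SE), adjusted p = 0.0021, or -0.12 (adjusted p = 0.21) relative to the median gene, and its fall with R848 (-0.25 ± 0.082 (SE), adjusted p = 0.010) became a rise of 0.34 (adjusted p = 0.0012) relative to the median gene and lost the call without vehicle replicate 1 (-0.21, adjusted p = 0.068).

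Srebf2, which encodes the SREBP of cholesterol synthesis, was at 207 and 223 CPM with vehicle, 263 and 268 CPM with polyU, 214 and 218 CPM with PNPi+dG/rG, 283 and 265 CPM with PNPi+dG/rG+polyU and 339 and 346 CPM under R848. It rose by 0.30 ± 0.047, 0.35 ± 0.047 and 0.67 ± 0.047 on the log2 scale (SE) with the 3 stimuli. Srebf1, which encodes the SREBP of fatty acid synthesis, was at 85.4 and 87.2 CPM with vehicle, 85.7 and 82.0 CPM with polyU, 91.7 and 90.2 CPM with PNPi+dG/rG, 60.4 and 58.6 CPM with PNPi+dG/rG+polyU and 81.8 and 85.5 CPM under R848. It fell with PNPi+dG/rG+polyU (-0.54 ± 0.053 (SE), adjusted p = 2.1e-07), the one group below all others, while its R848 value was -0.045 (adjusted p = 0.44) on deposited CPM and 0.55 (adjusted p = 5.5e-08) relative to the median gene. Both genes' mRNA is measured here, not the cleaved protein.

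Several of the LXR genes and their targets differed between stimuli. Nr1h3 (ENSMUSG00000002108, chr2:91184061-91202834, minus strand), which encodes LXRα, was at 43.9 and 43.9 CPM with vehicle, 121 and 132 CPM with polyU, 41.7 and 40.5 CPM with PNPi+dG/rG, 136 and 138 CPM with PNPi+dG/rG+polyU and 61.2 and 63.3 CPM under R848. Both polyU-containing groups were high, with log2 fold changes of 1.52 ± 0.056 (SE), adjusted p = 2.2e-11 with polyU and 1.64 ± 0.056 (SE), adjusted p = 4.3e-13 with PNPi+dG/rG+polyU, and R848 lay between them and vehicle (0.50 ± 0.056 (SE), adjusted p = 5.2e-07). Nr1h2, which encodes LXRβ, was at 87.7 and 100.5 CPM with vehicle, 99.0 and 103 CPM with polyU, 96.2 and 94.5 CPM with PNPi+dG/rG, 102 and 107 CPM with PNPi+dG/rG+polyU and 109 and 115 CPM under R848. Its groups were close, with 0.26 ± 0.062 (SE), adjusted p = 0.0012 for R848, and its rise with PNPi+dG/rG+polyU (0.15 ± 0.062 (SE), adjusted p = 0.043) lost the call without any 1 of 5 libraries: vehicle replicate 1 (0.052, adjusted p = 0.49), PNPi+dG/rG replicate 1 or 2 (0.15, adjusted p = 0.056 and 0.055) and PNPi+dG/rG+polyU replicate 1 (0.18, adjusted p = 0.056) or 2 (0.12, adjusted p = 0.21).

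The 2 efflux transporters of the set, which pass cholesterol to lipid-poor apolipoprotein (Abca1) and to HDL particles (Abcg1), went in opposite directions with R848. Abca1 (ENSMUSG00000015243, chr4:53030787-53159895, minus strand) was at 58.4 and 64.8 CPM with vehicle, 49.2 and 45.8 CPM with polyU, 69.6 and 67.2 CPM with PNPi+dG/rG, 65.0 and 70.8 CPM with PNPi+dG/rG+polyU and 294 and 306 CPM under R848. The R848 libraries stood far above all others, a log2 fold change of 2.29 ± 0.064 (SE), adjusted p = 1.8e-14 (4.88-fold), while polyU lowered the gene (-0.37 ± 0.064 (SE), adjusted p = 2.7e-04) and PNPi+dG/rG+polyU gave 0.14 ± 0.064 (SE), adjusted p = 0.061, which came under 0.05 without vehicle replicate 2 (0.22, adjusted p = 0.017) or PNPi+dG/rG+polyU replicate 1 (0.20, adjusted p = 0.032) and was 0.35 (adjusted p = 0.00011) relative to the median gene. The rise with R848 came in the libraries in which the fibroblast markers summed to 139 to 149 CPM, whose part in it was not tested. Abcg1 (ENSMUSG00000024030, chr17:31057675-31117988, plus strand) was at 73.5 and 68.2 CPM with vehicle, 37.5 and 42.6 CPM with polyU, 66.4 and 68.0 CPM with PNPi+dG/rG, 18.6 and 24.0 CPM with PNPi+dG/rG+polyU and 6.69 and 7.78 CPM under R848. These groups stepped down without overlap from vehicle and PNPi+dG/rG to polyU, PNPi+dG/rG+polyU and R848, with log2 fold changes of -0.82 ± 0.11 (SE), adjusted p = 6.1e-05 with polyU, -1.74 ± 0.11 (SE), adjusted p = 6.4e-09 with PNPi+dG/rG+polyU, and -3.29 ± 0.11 (SE), adjusted p = 2.6e-12 under R848.

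Mylip encodes IDOL, the LXR-induced ubiquitin ligase that sends lipoprotein receptors for degradation. It was at 44.9 and 47.9 CPM with vehicle, 26.2 and 31.7 CPM with polyU, 45.0 and 40.8 CPM with PNPi+dG/rG, 40.8 and 41.4 CPM with PNPi+dG/rG+polyU and 13.5 and 14.1 CPM under R848. It fell with polyU (-0.69 ± 0.089 (SE), adjusted p = 1.9e-05) and R848 (-1.75 ± 0.089 (SE), adjusted p = 3.4e-11), and the PNPi+dG/rG+polyU libraries lay above the polyU libraries and below the vehicle libraries (-0.18 ± 0.089 (SE), adjusted p = 0.094 against vehicle), a value that came under 0.05 without polyU replicate 1 (adjusted p = 0.047) or polyU replicate 2 (adjusted p = 0.049).

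Apoe, the apolipoprotein that macrophages load with effluxed cholesterol, was at 2215 and 2277 CPM with vehicle, 2254 and 2393 CPM with polyU, 2327 and 2257 CPM with PNPi+dG/rG, 2092 and 2053 CPM with PNPi+dG/rG+polyU and 5317 and 5571 CPM under R848. On deposited CPM it was the one member called in opposite directions by the stronger stimuli. The rise with R848 was 1.28 ± 0.038 (SE), adjusted p = 3.2e-14 (2.42-fold), again in the libraries with the fibroblast transcripts, whose part was not tested. The fall with PNPi+dG/rG+polyU was -0.12 ± 0.038 (SE), adjusted p = 0.013, it became a rise of 0.095 (adjusted p = 0.043) relative to the median gene, and it lost the call without vehicle replicate 2 (-0.096, adjusted p = 0.088) or PNPi+dG/rG+polyU replicate 2 (-0.10, adjusted p = 0.088). Lpcat3, the LXR target that puts polyunsaturated chains into phospholipids, fell with R848 (-0.36 ± 0.065 (SE), adjusted p = 1.0e-04) on deposited CPM and rose by 0.23 (adjusted p = 0.0029) relative to the median gene, and its other values against vehicle were not called on deposited CPM, though it was at 0.16 (adjusted p = 0.038) with PNPi+dG/rG+polyU relative to the median gene.

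Ch25h (ENSMUSG00000050370, chr19:34473778-34475164, minus strand), the enzyme that makes 25-hydroxycholesterol, was at 14.7 and 15.5 CPM with vehicle, 28.2 and 22.2 CPM with polyU, 12.4 and 11.9 CPM with PNPi+dG/rG, 52.5 and 60.8 CPM with PNPi+dG/rG+polyU and 44.5 and 49.6 CPM under R848. All 3 stimulated groups lay above vehicle with no overlap, with log2 fold changes of 0.73 ± 0.11 (SE), adjusted p = 7.9e-05 with polyU, 1.91 ± 0.11 (SE), adjusted p = 3.8e-10 with PNPi+dG/rG+polyU, and 1.64 ± 0.11 (SE), adjusted p = 1.3e-09 under R848. Soat1 (ENSMUSG00000026600, chr1:156424525-156474331, minus strand), which esterifies cholesterol for storage in droplets, was at 435 and 417 CPM with vehicle, 336 and 341 CPM with polyU, 389.9 and 396 CPM with PNPi+dG/rG, 179 and 178 CPM with PNPi+dG/rG+polyU and 122 and 119 CPM under R848. Its replicates differed by far less than its groups, and its log2 fold change was -1.25 ± 0.041 (SE), adjusted p = 2.4e-13 with PNPi+dG/rG+polyU, and -1.82 ± 0.041 (SE), adjusted p = 1.2e-15 under R848. Stard4, a carrier of sterol between membranes and an SREBP target, rose from 21.6 ± 1.49 CPM with vehicle to 38.8 ± 3.85 CPM with polyU, 30.0 ± 3.07 CPM with PNPi+dG/rG+polyU and 32.4 ± 1.71 CPM under R848.

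All 4 fatty acid genes were lower under the 2 stronger stimuli, PNPi+dG/rG+polyU and R848, where 46.7% and 62.9% of all genes tested were lower. Their median log2 fold changes were -1.27 and -2.07, beside -0.22 and -0.50 over all genes. Relative to the median gene Scd1 lost the call with PNPi+dG/rG+polyU (-0.29, adjusted p = 0.23), which left 3 of 4 lower there. Fasn, fatty acid synthase, was at 177 and 187 CPM with vehicle, 152 and 145 CPM with polyU, 153 and 156 CPM with PNPi+dG/rG, 71.8 and 57.1 CPM with PNPi+dG/rG+polyU and 60.0 and 58.8 CPM under R848. It fell with PNPi+dG/rG+polyU (-1.51 ± 0.082 (SE), adjusted p = 2.5e-09) and R848 (-1.61 ± 0.082 (SE), adjusted p = 6.5e-10), and its fall with polyU (-0.29 ± 0.082 (SE), adjusted p = 0.013) lost the call without vehicle replicate 2 (-0.26, adjusted p = 0.082) or polyU replicate 2 (-0.26, adjusted p = 0.10). Acaca, the acetyl-CoA carboxylase that makes its substrate malonyl-CoA, was at 19.1 and 19.4 CPM with vehicle, 15.9 and 15.7 CPM with polyU, 19.4 and 18.4 CPM with PNPi+dG/rG, 10.3 and 8.58 CPM with PNPi+dG/rG+polyU and 9.56 and 8.24 CPM under R848. Its falls were -1.04 ± 0.11 (SE), adjusted p = 7.4e-07 with PNPi+dG/rG+polyU, and -1.12 ± 0.11 (SE), adjusted p = 1.8e-07 under R848, and 30.4% of its 50-base stretches occur in other transcripts. With polyU its value of -0.29 had an adjusted p of 0.057, which came under 0.05 relative to the median gene (-0.33, adjusted p = 0.032) and without PNPi+dG/rG+polyU replicate 1 (adjusted p = 0.039) or 2 (adjusted p = 0.038) or R848 replicate 1 (adjusted p = 0.047) or 2 (adjusted p = 0.045).

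The stearoyl-CoA desaturases, which make monounsaturated fatty acids, fell furthest with R848. Scd2 (ENSMUSG00000025203, chr19:44293674-44306864, plus strand) was at 55.5 and 54.0 CPM with vehicle, 65.1 and 78.7 CPM with polyU, 56.7 and 54.4 CPM with PNPi+dG/rG, 21.2 and 17.4 CPM with PNPi+dG/rG+polyU and 4.89 and 4.78 CPM under R848. The groups did not overlap except vehicle and PNPi+dG/rG, and the fall was -1.51 ± 0.10 (SE), adjusted p = 1.8e-09 with PNPi+dG/rG+polyU and -3.50 ± 0.10 (SE), adjusted p = 2.3e-14 under R848, 11.3-fold. Its rise with polyU (0.39 ± 0.10 (SE), adjusted p = 0.0064) lost the call without polyU replicate 2 (0.25, adjusted p = 0.12). Scd1 was at 5.27 and 4.89 CPM with vehicle, 5.06 and 3.89 CPM with polyU, 5.50 and 4.71 CPM with PNPi+dG/rG, 3.89 and 3.31 CPM with PNPi+dG/rG+polyU and 0.850 and 0.919 CPM under R848. With R848 Scd1 rested on 16 and 30 reads, near the floor. It fell with R848 (-2.52 ± 0.21 (SE), adjusted p = 1.4e-08), with no overlap between R848 and any other group, while the PNPi+dG/rG+polyU value (-0.50 ± 0.21 (SE), adjusted p = 0.043) lost the call without any 1 of 5 libraries: vehicle replicate 1 (-0.45, adjusted p = 0.15) or 2 (-0.56, adjusted p = 0.079), PNPi+dG/rG replicate 1 (-0.50, adjusted p = 0.065) or 2 (-0.50, adjusted p = 0.064) and PNPi+dG/rG+polyU replicate 2 (-0.38, adjusted p = 0.19).

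Adding PNPi+dG/rG to polyU asks what the inhibitor and the guanosines together do once ssRNA is present. Compared with polyU by itself, 4 of the 33 genes were higher and 19 lower after this addition, where 15.8% of all genes were higher and 47.5% lower, and relative to the median gene 8 were higher and 10 lower. The members' median difference was -0.31, beside -0.24 over all genes. Ch25h (log2 difference 1.17 ± 0.11 (SE), adjusted p = 2.1e-07), Abca1 (0.52 ± 0.064), Mylip (0.51 ± 0.089) and Hmgcs1 (0.27 ± 0.083) were the 4 higher genes, Hmgcs1 not without polyU replicate 1 (0.25, adjusted p = 0.062) or PNPi+dG/rG+polyU replicate 1 (0.21, adjusted p = 0.095). From squalene to cholesterol 7 of 8 genes were lower (4, with 1 higher, relative to the median gene), led by Dhcr7 (-1.29 ± 0.11 (SE), adjusted p = 3.7e-08), Lss (-0.99 ± 0.12 (SE), adjusted p = 3.2e-06) and Sqle (-0.77 ± 0.069 (SE), adjusted p = 1.1e-07); Cyp51 was the eighth at -0.055 ± 0.069, and relative to the median gene it was at 0.20 (adjusted p = 0.027). Of these 7, Hsd17b7 (-0.22 ± 0.089) was at 0.031 relative to the median gene and lost its call without polyU replicate 1 (-0.16, adjusted p = 0.21) or PNPi+dG/rG+polyU replicate 2 (-0.15, adjusted p = 0.24), as Nsdhl did (-0.28 ± 0.094; -0.25, adjusted p = 0.085, and -0.17, adjusted p = 0.18). Of the 17 genes that rose with polyU, 10 were lower when PNPi+dG/rG was added: Insig1, Lss, Msmo1, Mvd, Mvk, Nsdhl, Sc5d, Scd2, Sqle and Stard4. The share of all genes with both calls was not counted, and 47.5% of all genes were lower on this addition. Relative to the median gene 4 of the 10 kept both calls: Lss, Msmo1, Scd2 and Sqle. The other 6 were at -0.053 (Insig1), -0.22 (Mvd), -0.18 (Mvk), -0.022 (Nsdhl), -0.15 (Sc5d) and -0.12 (Stard4), with adjusted p of 0.13 to 0.86. Further turned calls on that scale were Pmvk (-0.042, adjusted p = 0.79) and Apoe (0.090, adjusted p = 0.063), no longer lower, and Srebf2 (0.30, adjusted p = 6.1e-05), Nr1h2 (0.30, adjusted p = 0.00072) and Nr1h3 (0.37, adjusted p = 4.9e-05), higher. Both counts use the polyU libraries, which enter the rise and the fall with opposite signs. In that list Mvk lost the second call without polyU replicate 2 (-0.30, adjusted p = 0.15) or PNPi+dG/rG+polyU replicate 2 (-0.32, adjusted p = 0.14), and Stard4 without the latter (-0.27, adjusted p = 0.051). Pmvk, also lower (-0.30 ± 0.12), lost its call without polyU replicate 2 (-0.19, adjusted p = 0.26), either PNPi+dG/rG library (-0.30, adjusted p = 0.055) or either PNPi+dG/rG+polyU library (-0.32, adjusted p = 0.077, and -0.27, adjusted p = 0.14).

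The interaction term tests whether PNPi+dG/rG acted differently with polyU than without it. It was positive for 5 members and negative for 15, where 11.8% of all genes were called positive and 38.9% negative, and relative to the median gene 7 were positive and 9 negative. The largest were Scd2 (-1.92 ± 0.14 (SE), adjusted p = 2.6e-08), Ch25h (1.49 ± 0.15 (SE), adjusted p = 1.4e-06), Dhcr7 (-1.19 ± 0.15 (SE), adjusted p = 8.7e-06) and Lss (-1.18 ± 0.17 (SE), adjusted p = 3.7e-05), each beyond 1 on the log2 scale. Scd2 shows its form: PNPi+dG/rG left it at 56.7 and 54.4 CPM beside 55.5 and 54.0 CPM with vehicle, but took it to 21.2 and 17.4 CPM from 65.1 and 78.7 CPM in the presence of polyU. Ch25h showed the opposite form, 12.4 and 11.9 CPM beside 14.7 and 15.5 CPM without polyU and 52.5 and 60.8 CPM beside 28.2 and 22.2 CPM with it. Fasn (-0.98 ± 0.12), Abcg1 (-0.85 ± 0.16), Soat1 (-0.81 ± 0.058) and Acaca (-0.72 ± 0.16) were also negative. Abca1 (0.36 ± 0.091) and Mylip (0.63 ± 0.13) were positive, as were Nr1h3 (0.21 ± 0.079) and Hmgcs1 (0.32 ± 0.12). Nr1h3 lost the call (0.15 to 0.23) without any 1 of the libraries of these groups but polyU replicate 2, and Hmgcs1 (0.22 to 0.35) without vehicle replicate 1, either polyU library, PNPi+dG/rG replicate 1 or PNPi+dG/rG+polyU replicate 1. Among the negative values, Mvk (-0.64 ± 0.20) lost the call (-0.59 to -0.44) without vehicle replicate 1, polyU replicate 2, PNPi+dG/rG replicate 1 or PNPi+dG/rG+polyU replicate 2, and Stard4 (-0.36 ± 0.13) lost it (-0.39 to -0.26) without vehicle replicate 2, polyU replicate 1, either PNPi+dG/rG library or PNPi+dG/rG+polyU replicate 2. Relative to the median gene the negative calls of Mvk, Msmo1, Sc5d, Insig1, Apoe and Stard4 were lost (adjusted p of 0.20 to 0.70), and Srebf2 (0.33, adjusted p = 0.0011) and Nr1h2 (0.31, adjusted p = 0.010) became positive.

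**Figure D3:**
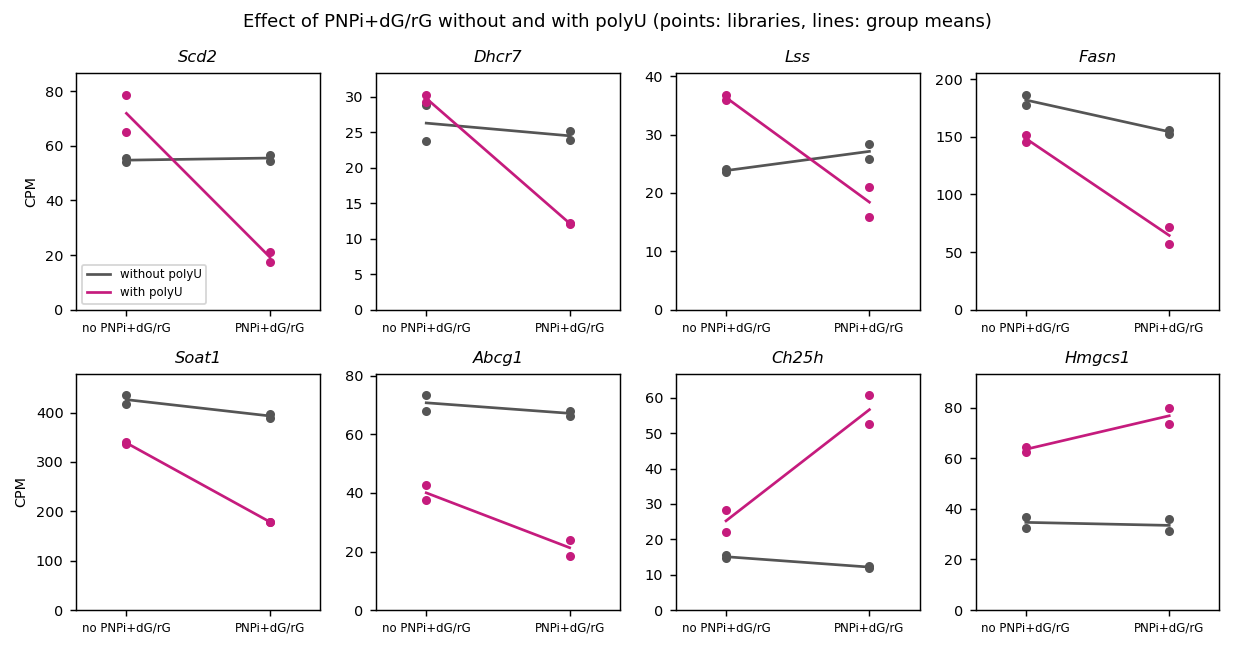
CPM (y axis, linear from 0) of 8 genes without and with PNPi+dG/rG (x axis), in the absence (grey) and presence (magenta) of polyU; points are libraries and lines join group means. The magenta lines fall steeply for Scd2, Dhcr7, Lss, Fasn, Soat1 and Abcg1 and rise for Ch25h, while the grey lines change less. Scd2 goes from 54.7 ± 1.06 to 55.5 ± 1.61 CPM (SD) without polyU and from 71.9 ± 9.63 to 19.3 ± 2.68 CPM with it. Without polyU, Fasn goes from 182 ± 6.48 to 154 ± 2.28 CPM and Ch25h from 15.1 ± 0.530 to 12.1 ± 0.354 CPM.

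PNPi+dG/rG+polyU and R848 engage TLR7 by a natural ligand pair and by a synthetic agonist, at doses that cannot be matched. Between them 14 members were higher and 5 lower with PNPi+dG/rG+polyU, where 53.9% of all genes were higher and 16.9% lower. Relative to the median gene the split was 7 higher and 16 lower, and the members' median difference of 0.13 on deposited CPM, beside 0.31 over all genes, became -0.25. Direction held under both scalings for the large differences, of which that of Scd1 rests on 16 and 30 reads with R848, near the floor. Scd1 (2.02 ± 0.21 (SE), adjusted p = 4.1e-07), Scd2 (1.99 ± 0.10 (SE), adjusted p = 1.1e-10), Dhcr7 (1.95 ± 0.11 (SE), adjusted p = 2.2e-10), Mylip (1.57 ± 0.089 (SE), adjusted p = 4.0e-10), Abcg1 (1.55 ± 0.11 (SE), adjusted p = 3.0e-08) and Nr1h3 (1.14 ± 0.056 (SE), adjusted p = 7.8e-11) were higher with PNPi+dG/rG+polyU, at 1.64, 1.61, 1.57, 1.19, 1.17 and 0.75 relative to the median gene. Abca1 (-2.14 ± 0.064 (SE), adjusted p = 2.6e-13) and Apoe (-1.39 ± 0.038 (SE), adjusted p = 8.3e-14) were lower, at -2.53 and -1.78. Srebf1 (-0.49 ± 0.053), Srebf2 (-0.32 ± 0.047) and Hsd17b7 (-0.39 ± 0.089) were the other 3 lower genes.

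For several members the 2 stimuli were not called different on deposited CPM. The 95% interval of the log2 difference was -0.24 to 0.12 for Hmgcs1, -0.029 to 0.26 for Insig1, -0.27 to 0.022 for Cyp51, -0.18 to 0.30 for Fdft1, -0.15 to 0.36 for Mvd and -0.069 to 0.29 for Fasn. Relative to the median gene the 6 differences were -0.44, -0.27, -0.51, -0.32, -0.28 and -0.27, of which the other 5 were called and Mvd was not (adjusted p = 0.050). Fasn was called on deposited CPM as well, as higher, without PNPi+dG/rG+polyU replicate 2 (0.27, adjusted p = 0.0014), as were Sqle (0.21, adjusted p = 0.026) and Lss (0.34, adjusted p = 0.015), and Sc5d was without R848 replicate 1 (0.25, adjusted p = 0.032). Sqle, Sc5d, Insig2, Nr1h2, Stard4 and Acaca were likewise lower only relative to the median gene (-0.49 to -0.25), and Mvk, Pmvk, Fdps, Msmo1, Nsdhl and Lpcat3 were higher only on deposited CPM. Ch25h was slightly higher with PNPi+dG/rG+polyU (0.27 ± 0.11 (SE), adjusted p = 0.040) on deposited CPM and at -0.12 relative to the median gene, and it lost the call without PNPi+dG/rG+polyU replicate 2 (0.16, adjusted p = 0.30) or R848 replicate 1 (0.19, adjusted p = 0.23). Fdps and Pmvk, also higher (0.70 ± 0.21 and 0.41 ± 0.12), lost theirs without R848 replicate 1 (0.57, adjusted p = 0.064, and 0.32, adjusted p = 0.059).

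**Figure D4:**
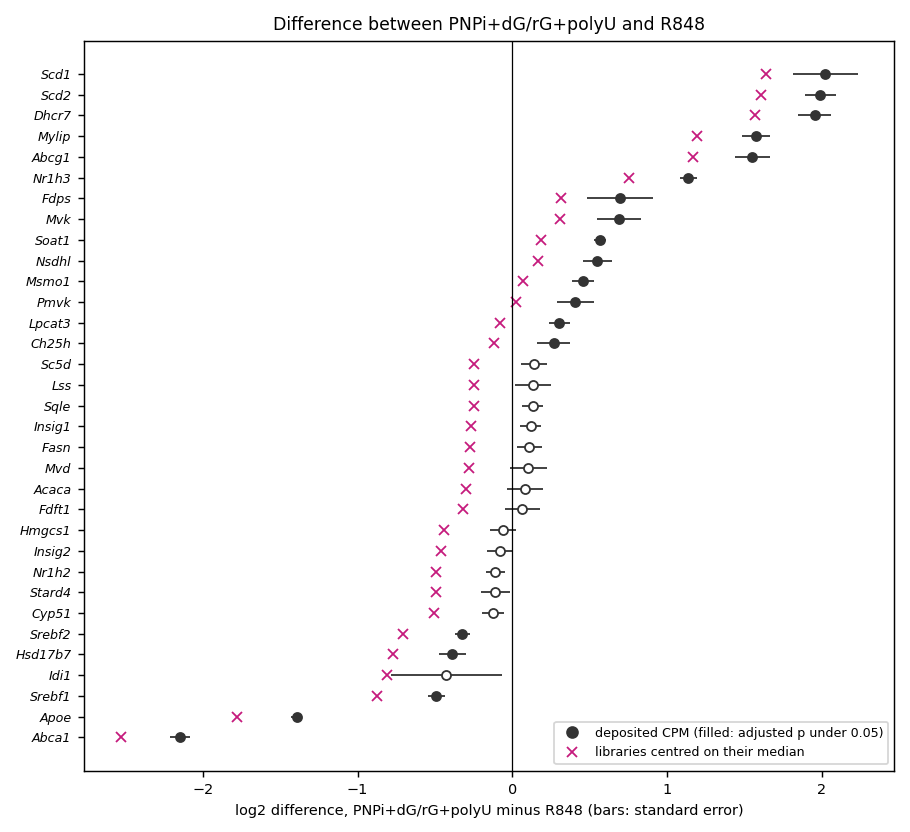
Log2 value with PNPi+dG/rG+polyU minus that with R848 (x axis) for the 33 genes in order of size (y axis): circles with standard error bars are deposited CPM, filled at an adjusted p under 0.05, and crosses are values with each library centred on its median gene. The ends of the order, from Abca1 at -2.14 to Scd1 at 2.02, keep their direction under both scalings, while values near 0 shift to the left with centring. Scd1 rests on 16 and 30 reads with R848.

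Of 35 other genes of these pathways, 34 passed the filter (Vldlr did not) and most were lower with both stronger stimuli. On deposited CPM 2 were higher and 27 lower with PNPi+dG/rG+polyU, where 22.2% of all genes were higher and 46.7% lower. With R848 2 were higher and 26 lower, where 19.2% of all genes were higher and 62.9% lower. Relative to the median gene these counts were 5 and 22, and 10 and 21. With polyU 4 were higher and 16 lower, where 20.6% of all genes were higher and 18.7% lower. With PNPi+dG/rG 2 were lower and none higher, where 0.392% of all genes were lower and 0.409% higher. Genes of fatty acid desaturation and elongation were among the lowest, beside Scd1 and Scd2. The desaturases Fads2 and Fads1 were at -5.15 ± 0.12 and -3.20 ± 0.064 on the log2 scale (SE) with R848 and at -0.89 ± 0.12 and -1.37 ± 0.064 with PNPi+dG/rG+polyU, and the elongase Elovl6 was at -3.23 ± 0.20 and -1.90 ± 0.20. Between the treatments Fads2 gave the widest gap of the list, 4.26 ± 0.12 (SE), adjusted p = 1.5e-13. With R848 Fads2 was at 0.797 and 0.704 CPM, from 15 and 23 reads, and Elovl6 rested on 20 and 36 reads, so these R848 values lie near the floor.

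The higher genes were Abca7, a lipid transporter (0.68 ± 0.062 with PNPi+dG/rG+polyU and 0.93 ± 0.062 under R848), Acss2, which makes acetyl-CoA from acetate, with PNPi+dG/rG+polyU (0.71 ± 0.21), and Scap with R848 (0.45 ± 0.066). Those named next were lower by at least 2-fold in at least 1 of these comparisons. Nceh1, a hydrolase of cholesteryl esters, was at -3.56 ± 0.049 with R848 and -1.85 ± 0.049 with PNPi+dG/rG+polyU against vehicle, Lipa, the lysosomal acid lipase, at -2.10 ± 0.037 and -0.95 ± 0.037, and Npc1, which exports cholesterol from lysosomes, at -1.52 ± 0.042 and -1.36 ± 0.042. Cyp27a1, which makes 27-hydroxycholesterol, was at -3.44 ± 0.21, from 12 and 21 reads with R848, and -1.29 ± 0.21. The HDL receptor gene Scarb1 was at -1.98 ± 0.071 and -0.79 ± 0.071. Rxra, which encodes the partner of LXR on DNA, was at -1.77 ± 0.063 and -1.97 ± 0.063, the droplet coat gene Plin2 at -2.00 ± 0.046 and -1.95 ± 0.046, the endocytic receptor gene Lrp1 at -1.61 ± 0.045 and -1.94 ± 0.045, and Gramd1b, which moves plasma membrane cholesterol inward, at -1.59 ± 0.046 and -1.43 ± 0.046. Plin2 and Gramd1b were also the 2 genes of this list called lower with PNPi+dG/rG alone (-0.24 ± 0.046 and -0.22 ± 0.046). Further genes at least 2-fold lower with R848 were Lbr (-1.74 ± 0.084), Tmem97 (-1.62 ± 0.12), Elovl5 (-1.43 ± 0.067), Lpl (-1.35 ± 0.037) and Acsl3 (-1.07 ± 0.17), and Acss2 gave a difference between the 2 stimuli, PNPi+dG/rG+polyU minus R848, of 1.48 ± 0.21 (SE), adjusted p = 1.6e-05.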

How the data were processed

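RNA from BMDMs was sequenced as stranded poly(A) libraries (KAPA kit, HiSeq 3000, 1 × 50 bp). The authors demultiplexed with bcl2fastq 2.19.1.403, aligned reads with STAR 2.27a, counted them per gene on Ensembl 97 (GRCm38) and deposited CPM with an offset of 1e-04 added; the strand setting is not given in the sources used here. Symbols came from GENCODE M21 (55394 of 55573 IDs). Low CPM values were whole multiples of what 1 read is worth, which gave the depths; 3 reads correspond to 0.0781 to 0.212 CPM, and this covers counting error only. limma 3.58.1 (R 4.3.3, trend and robust eBayes with statmod 1.5.0) was fitted to log2 of the deposited CPM in all 10 libraries, for genes at 1 CPM or more in at least 2 libraries, with Benjamini-Hochberg adjustment over all 11978 genes. The spread is shared by all groups, so an adjusted p rests on 2 cultures per group, and fold changes include the offset. The fit was tested on simulated data. Replicates of a member differed by at most 1.43 times, apart from Idi1 (1.64).

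The 33 genes, the role and pathway lists and the marker lists were chosen with earlier results of these data known. Every member is named; values in each library are given for members called at 2-fold or more in PNPi+dG/rG+polyU vs vehicle, R848 vs vehicle or PNPi+dG/rG+polyU vs R848 and for paralog pairs, and genes of the pathway list are named where they pass the same rule, except for a result that is not reported here; Abca7 and Scap were named after their values were seen. Alternatives were other pseudocounts and filters, centring of libraries, plain eBayes, fits of only the groups compared, a replicate block and leaving out each library; leaving out both R848 libraries was added after seeing the data. Upstream sequences are from RefSeq (GRCm38.p6), searched on both strands, and shared 50-base stretches were counted in GENCODE M21 transcripts. Figures were drawn with matplotlib 3.10.9.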

Additional observations from a re-analysis of the deposited data

Results flagged for a closer look

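For 4 of the 33 genes the effect of PNPi+dG/rG differed between cultures without and with polyU by at least 2-fold in the limma interaction test. Scd2 had an interaction of -1.92 ± 0.14 (SE), adjusted p = 2.6e-08: PNPi+dG/rG changed it by 0.020 on the log2 scale without polyU and by -1.90 with it. Ch25h had the one positive value of this size, 1.49 ± 0.15 (SE), adjusted p = 1.4e-06, from -0.31 without polyU and 1.17 with it. Dhcr7 had -1.19 ± 0.15 (SE), adjusted p = 8.7e-06, from -0.096 and -1.29, and Lss had -1.18 ± 0.17 (SE), adjusted p = 3.7e-05, from 0.19 and -0.99. On deposited CPM the interaction had a median of -0.27 across the 11978 genes, which is not the shift that centring applied. With each library centred on its median gene, the 4 interactions were -1.63, 1.77, -0.91 and -0.89 in the same order. The vehicle, polyU, PNPi+dG/rG and PNPi+dG/rG+polyU libraries all enter these values, and the carrier of polyU cannot be told apart from polyU in them.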

How the results depend on the processing

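Over all alternatives, 4116 values of single members kept their call or stayed uncalled, 114 lost a call and 50 gained one. Values uncalled in both fits are among the 4116 even where their direction turned, such as Fdps with R848 on centring (from -0.39 to 0.20). The other 22 turned direction with a call in the main or the alternative fit, and all came from centring each library on its median gene. These were, against vehicle, Apoe (0.095) and Lpcat3 (0.16) with PNPi+dG/rG+polyU, and Pmvk (0.19), Sqle (0.23), Lss (0.076), Msmo1 (0.034), Nsdhl (0.14), Srebf1 (0.55), Insig2 (0.34) and Lpcat3 (0.23) with R848. For PNPi+dG/rG+polyU vs R848 they were Fdft1 (-0.32), Sqle (-0.25), Sc5d (-0.25), Insig1 (-0.27), Lpcat3 (-0.079), Ch25h (-0.12), Fasn (-0.27) and Acaca (-0.30), for PNPi+dG/rG+polyU vs polyU Cyp51 (0.20), Hsd17b7 (0.031) and Apoe (0.090), and for the interaction Apoe (0.093).

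Centring also moved summaries: the median log2 fold change became 0.33 with polyU, 0.21 with PNPi+dG/rG+polyU (16 higher, 7 lower), 0.34 with R848 (8 lower), -0.25 for PNPi+dG/rG+polyU vs R848 (7 higher, 16 lower), -0.052 for PNPi+dG/rG+polyU vs polyU (8 higher, 10 lower) and -0.022 for the interaction (9 lower). Fitting only the groups compared called 1 member lower with PNPi+dG/rG. A mean of at least 10 CPM gave an R848 median of -0.15, from fewer genes tested. The interaction gave 3 higher members with no filter and 3 with plain eBayes, and a median of -0.25 at pseudocount 1. The cause of these shifts was not tested.

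Leaving out 1 library at a time gave, for higher members, lower members and the median, 14 to 20, 4 to 6 and 0.29 to 0.37 with polyU; 0, 0 and -0.039 to 0.014 with PNPi+dG/rG; 9 to 11, 8 to 13 and -0.076 to 0.13 with PNPi+dG/rG+polyU; 12 to 14, 15 to 16 and -0.28 to -0.21 with R848; 12 to 16, 5 and 0.054 to 0.21 for PNPi+dG/rG+polyU vs R848; 3 to 5, 15 to 19 and -0.39 to -0.27 for PNPi+dG/rG+polyU vs polyU; and 3 to 5, 13 to 16 and -0.38 to -0.25 for the interaction. A lone library left in a group is assumed to vary like the other groups. The labels number the replicates, but same-numbered libraries did not deviate together (correlations of -0.29 to 0.11 over 10 pairs of groups), so the numbers are not taken as pairs; with the replicate block 229 member values kept their call and 2 gained one, with 18 higher and 6 lower members with polyU and no other count changed. The planned tests for read counts (with and without TMM, and with size factors) were left out and not run, since the files hold CPM with an offset and not reads.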
